A study of Oryzias latipes with 18 samples.

Results

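The accessible elements described here lie on chromosome 22 of the medaka, Oryzias latipes, outside 3 intervals that were set aside. Of the 149539 elements in the genome-wide list, 6327 were on this chromosome and 5937 of them were kept. The chromosome was chosen by its measured number of elements per Mb, so its density and every comparison with the other chromosomes are descriptions without a test. Counted whole, chromosome 22 held 219 elements per Mb and ranked 1 of 24, just above chromosome 16 with 217 elements per Mb. The intervals set aside were chr22:7119307-7319306 with 103 elements, chr22:9173963-9393566 with 97 elements and chr22:10293505-10965286 with 190 elements, and no element crossed their borders. Without them 213 elements per Mb remained over 27.8 Mb, and the chromosome ranked 6 of 24. The name "densest" thus held for the whole chromosome and not for the elements kept here. The other chromosomes kept all of their dense intervals in these comparisons.

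ATAC-seq libraries came from whole embryos of 9 developmental stages (11, 15, 19, 25, 29, 32, 36, 38 and 40), with 2 libraries per stage and 18 libraries in all. All groups shared the same background, a cross between the strains d-rR-Tg(olvas-GFP) and Qurt, and the labels separate the groups by stage alone. The embryos grew at 28 °C and were freed of the chorion with pronase and of the yolk, and the labels name no other treatment. The olvas-GFP transgene is driven by the promoter of the germ cell gene vasa. The list pools all stages and all cell types of the embryo and gives no value per stage or per library, so no spread between replicates could be computed and the depth of each library is unknown.

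Stretches of DNA that are free of nucleosomes can be cut by the Tn5 transposase, and clusters of such cuts mark promoters, enhancers and other regulatory elements. Promoters of genes used by most cells tend to be open throughout development, whereas enhancers open in particular tissues and at particular times. Genes for transcription factors (TFs) that pattern the embryo often lie among many such elements.

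The list gives 2 measurements for each element. The score was read as the −log10 of the q value from peak detection, so that a higher score means a clearer excess of cuts over the background. The peak number was read as the number of peaks, each from 1 stage, that were joined into it. With 9 stages, 9 peaks would arise from 1 peak at every stage, although the list does not name the stages.

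Chromosome 22 stood in the upper part of the 24 chromosomes in the number of its elements and in their median score, with rank 6 in both. The other 23 chromosomes ranged from 142 elements per Mb on chromosome 18 to 217 on chromosome 16, with a median of 197. The 5 chromosomes above chromosome 22 (16, 6, 9, 15 and 8) all lay within 4 elements per Mb of it. Elements covered 6.54% of the kept sequence, which ranked 3 of 24, and the median width of 258 bp ranked 8. The median score was 31.7 (quartiles 16.6 and 69.5), against medians of 28.6 to 32.8 on the other chromosomes. The chromosome was also not unusual in its genes, with 31.7 protein-coding genes per Mb (rank 9) and 6.74 elements per protein-coding gene (rank 8).

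**Figure D1:**
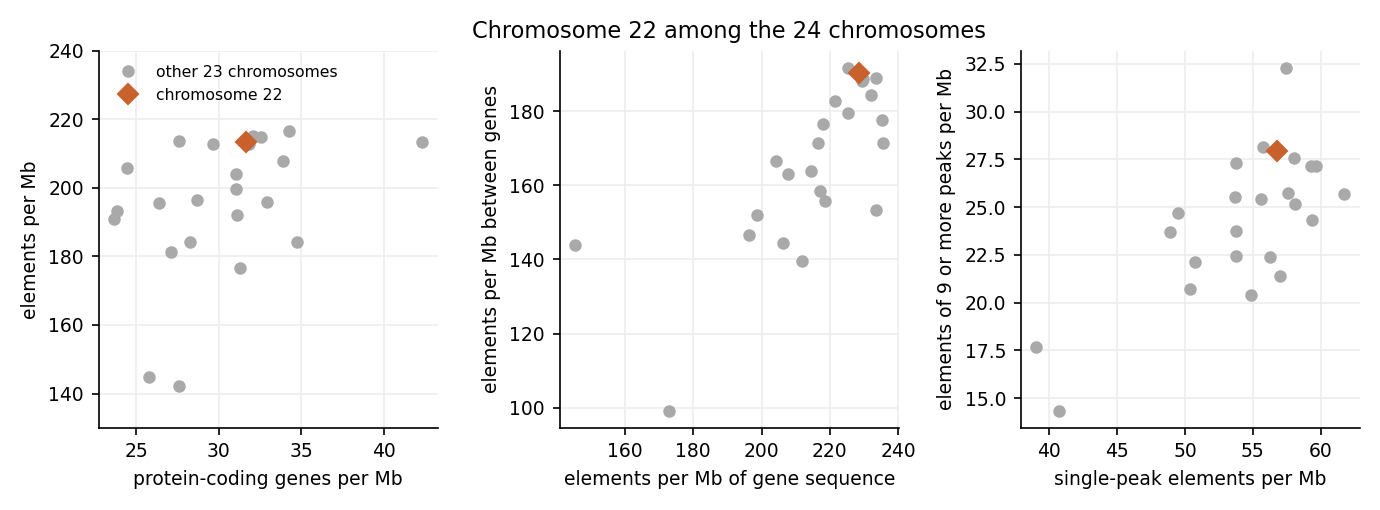
Elements per Mb against protein-coding genes per Mb, elements per Mb between genes against elements per Mb of gene sequence, and elements of 9 or more peaks per Mb against single-peak elements per Mb, with 1 point per chromosome. Chromosome 22 (diamond) lies near the top of the vertical axis in all 3 panels, at 213, 190 and 28.0 elements per Mb.

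The elements were also placed by their position relative to genes. Genes covered 60.2% of it, which ranked only 20 of 24, yet the sequence between genes held 190 elements per Mb, second to chromosome 8 with 192 and against 99.2 on chromosome 18. Inside genes the density was 229 elements per Mb (rank 8). By the midpoint, 1225 of the 5937 elements were distal, more than 5 kb from any gene of the RefSeq annotation (20.6%, 95% Wilson interval 19.6 to 21.7). The same share was 17.0% over the other 23 chromosomes together, and it ran from 12.1% on chromosome 8 to 24.1% on chromosome 2. Gene bodies took 2805 elements (47.2%, interval 45.98 to 48.5), against 51.7% elsewhere, and only 1 chromosome had a lower share. Gene ends, taken as 1 kb around the first and the last base of a gene, held 1422 elements (23.95%), and 485 elements (8.17%) were proximal, within 5 kb of a gene. All such intervals cover counting error only.

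Scores differed by place. Gene-end elements of chromosome 22 had a median score of 51.2, distal elements 29.2 and gene-body elements 27.9. The medians of the other chromosomes were close, at 48.8, 28.4 and 27.6 in the same order. Elements of 9 or more peaks made up 35.1% of the gene-end elements and 3.84% of the distal ones. The medians of these shares on the other chromosomes were 33.4% and 3.96%. Distal elements of chromosome 22 stood out little from those of other chromosomes in strength: their median score ranked 3 of 24, with 28.4 as the median of the other chromosomes, and 28.6% came from a single peak, the second lowest share of the 24 chromosomes.

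Along the chromosome the elements were spread unevenly. Of its 29 windows of 1 Mb, counted from the lower end of the coordinates, 25 were whole, and these held 71 to 344 elements with a median of 238. That median was above those of all other chromosomes (133 to 222), and so was the standard deviation over windows, 78.8 against 44.2 to 72.8. The 693 whole windows of the other chromosomes held 14 to 364 elements with a median of 196. On chromosome 22, 2 whole windows held over 300 elements (8%, against 4.18% elsewhere) and 4 held under 100 (16%, against 5.34% elsewhere).

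**Figure D2:**
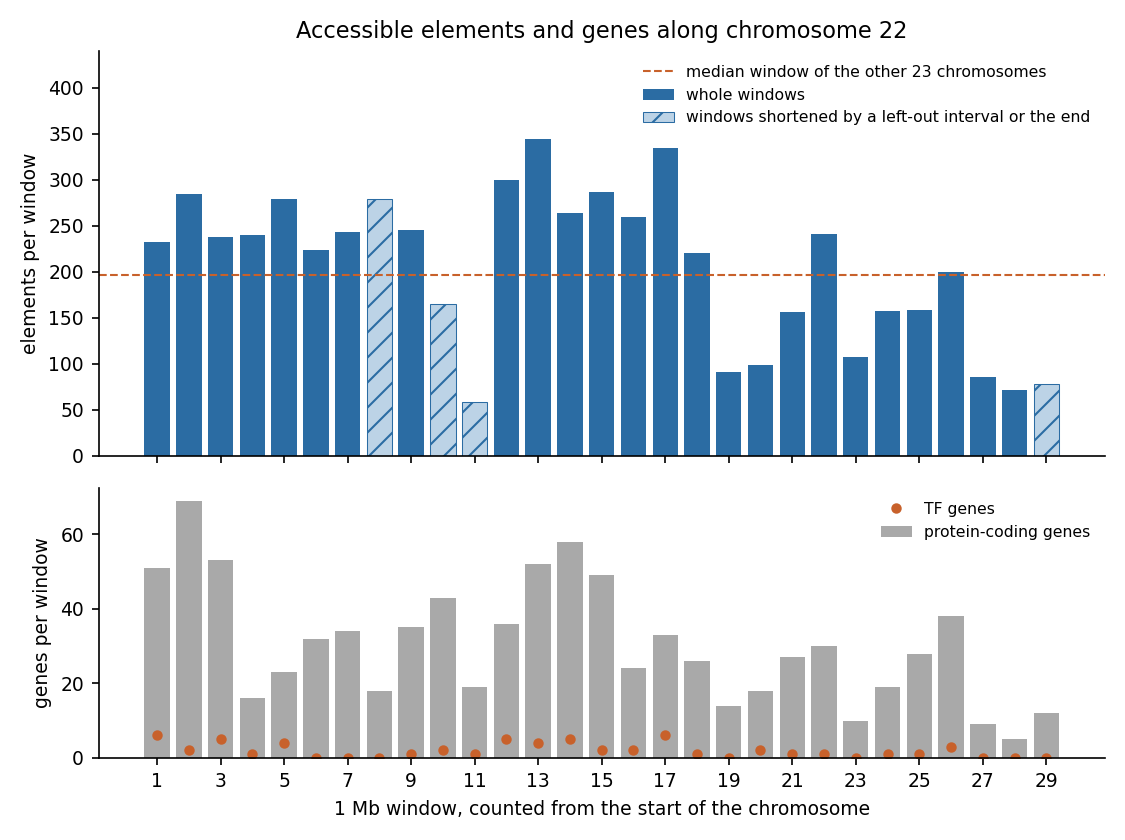
Elements per 1 Mb window of chromosome 22 (upper panel, dashed line at 196, the median window of the other 23 chromosomes) and protein-coding and TF genes in the same windows (lower panel), by window number from the lower end. All whole windows up to window 18 lie above the dashed line, and of the 10 whole windows after it only windows 22 and 26 do.

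All whole windows of over 250 elements lay in the first 18 Mb. That border was set after the windows had been seen, so the contrast across it is only a description. The first 18 windows held 266 elements per kept Mb and the last 11 held 132. Protein-coding genes numbered 39.7 per Mb in the first stretch and 19.2 in the second, and both had nearly the same number of elements per protein-coding gene, 6.70 and 6.87. TF genes were 47 in the first stretch and 9 in the second, lncRNA genes 29 and 3. The median score was 33.0 in the first stretch and 29.1 in the second, and 13 of the 18 gaps over 50 kb lay in the second. Cut at its midpoint, a border that no values set, the chromosome had 262 and 168 elements per Mb on its lower and higher sides, a ratio of 1.56 that only chromosome 2 exceeded, with 1.80.

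The fullest window was window 13, from 12 to 13 Mb, with 344 elements, 52 protein-coding genes and 4 TF genes. Its strongest element (score 494) lay at the end of pcnx4, a gene for a membrane protein of the pecanex family. Window 17 followed with 334 elements, of which 21.3% were distal, and its strongest element (score 544) lay inside ralgapa2, which encodes a subunit of a GTPase-activating complex for Ral proteins. Window 12 held 300 elements, 29.3% of them distal, and its strongest (score 677) sat at the end of ywhaq, the gene for a 14-3-3 adaptor protein. These windows also carried 6 TF genes in window 17 and 5 in window 12.

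Windows with many elements were not simply the gene-rich ones. Window 2 held the most protein-coding genes, 69, and 284 elements, of which 3.17% were distal and 40.5% at gene ends. Window 5 held 23 protein-coding genes and 279 elements, of which 38.0% were distal. Window 8, of which 800000 bp were kept, also had 279 elements, with 18 protein-coding genes and 44.4% of the elements distal. Over the 25 whole windows the element number followed protein-coding genes (Spearman's rho 0.69), TF genes (0.64) and the median score (0.68), but not the distal share (-0.12). The windows share 1 list and neighbouring windows are not independent, so these coefficients describe the chromosome only.

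The emptiest whole windows were windows 28, 27 and 19, with 71, 85 and 91 elements. Window 28 held 5 protein-coding genes, and its strongest element (score 470) lay at the end of wdr43, a gene of ribosome biogenesis. Window 27 held 9 protein-coding genes, with its strongest element (score 466) at LOC101169158. Window 19 held 14 protein-coding genes, no TF gene and the weakest elements of all windows, with a median score of 18.6, and 48.4% of its elements came from a single peak. Even there the strongest element reached a score of 520, at the end of kiaa1109.

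Neighbouring elements lay nearly as far apart as on the other chromosomes. The median distance from the end of an element to the start of the next was 2250 bp (quartiles 752 and 5140 bp). On the other 23 chromosomes it was 2391 bp (764 and 5575 bp). Under 500 bp apart were 19.5% of the neighbours, against 19.2% elsewhere. Distances over 10 kb made up 10.3% of the steps, against 11.6% on the other chromosomes.

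Dense runs were counted as 5 or more elements in a row with at most 1 kb between neighbours. Chromosome 22 held 35 of them, 1.26 per Mb, which ranked 13 of 24 in a range of 0.51 to 2.40 per Mb. No run of chromosome 22 had more than 7 elements, whereas 38 of the 881 runs elsewhere (4.31%) had 8 or more and the longest had 12. The 190 elements in runs were 3.20% of the kept elements. Their median score was 37.7, against 31.4 for the rest, 35.8% of them lay at gene ends, against 23.6%, and 2.63% were distal, against 21.2%.

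The fullest runs lay at the starts or ends of genes or inside 1 gene. The run at chr22:12814271-12817654 led into LOC101160520, between ktn1 and tmem260. Its 7 elements, in order along the chromosome, had scores of 31.0, 70.8, 119, 29.4, 43.8, 22.04 and 63.3, and peak numbers of 4, 8, 7, 3, 6, 1 and 8. The run at chr22:17536166-17540248 covered LOC101162798, and its 7 scores were 82.7, 266, 12.4, 172, 28.2, 62.3 and 11.999. Only the second of these elements, with 9 peaks, reached the number of stages. The run at chr22:14416816-14421022 lay inside crim1, whose protein binds bone morphogenetic proteins in other vertebrates. All 7 of its elements were in the gene body, with scores of 20.2, 12.5, 34.3, 58.6, 20.4, 17.4 and 19.8, and no element of it had more than 5 peaks.

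Runs of 6 elements mixed strong and weak members in the same way. The run at chr22:9934426-9937363 spanned znf593 and selenon, the latter encoding the muscle selenoprotein N, with scores of 92.5, 121, 21.5, 35.4, 128 and 71.5. The run at chr22:8676398-8679560 overlapped no gene and ended beside LOC101159396. Its scores were 30.7, 96.4, 522, 13.5, 81.9 and 54.4, so that an element past a score of 500 with 9 peaks stood next to one of 1 peak.

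Gaps over 50 kb were few. Chromosome 22 had 18 of them, which took 4.96% of the kept sequence, and their rate of 6.47 per 10 Mb ranked 22 of 24 in a range of 3.92 to 22.1. Of these, 4 were over 100 kb, and the longest gap, 134.6 kb, ranked 19 among the longest gaps of the 24 chromosomes, which reached 424 kb on chromosome 2.

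The longest gap, chr22:28788090-28922724, lay near the upper end of the chromosome. It began just inside diexf, at 28787955-28813413, a gene needed for the growth of digestive organs in zebrafish. The gene diexf itself was assigned 3 elements, 1 of them inside it. The gap also overlapped LOC101165530 and LOC111946855. The next, chr22:9776646-9902309 with 126 kb, lay between ppp2r5c and rpl13a, a ribosomal protein gene, and overlapped LOC105356920 and LOC101172371. A gap of 125 kb at chr22:26887166-27012488 overlapped LOC111946875. The gap at chr22:5909524-6016583, of 107 kb, overlapped 7 gene models, all named only by number. The fifth, of 84.9 kb at chr22:19092121-19177005, held no gene and lay between the gene models LOC111946862, 5057 bp below it, and LOC110017532, 19185 bp above it. The nearest protein-coding genes were lrfn5, a gene for a synaptic adhesion protein, at 91948 bp and fbxo33, which encodes an F-box protein, at 430322 bp. Among the shorter gaps, 2 lay in alk, a receptor tyrosine kinase gene of 650 kb, with 77.6 and 50.1 kb.

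The number of peaks behind an element split the elements into a broad class of few peaks and a narrow class of 9. A single peak stood behind 1581 elements (26.6%, interval 25.5 to 27.8), and 634 elements had exactly 9 peaks, more than the 341 with 8 or the 334 with 7. Elements of 9 or more peaks numbered 778 (13.1%, interval 12.3 to 14.0), against 12.4% over the other chromosomes and a range of 9.90% on chromosome 2 to 15.1% on chromosome 8. Per Mb they were 28.0, rank 3 of 24, after chromosome 8 with 32.3 and chromosome 5 with 28.2. The share of single-peak elements was the second lowest of the 24, but the whole range, 26.6% to 28.8%, was narrow.

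**Figure D3:**
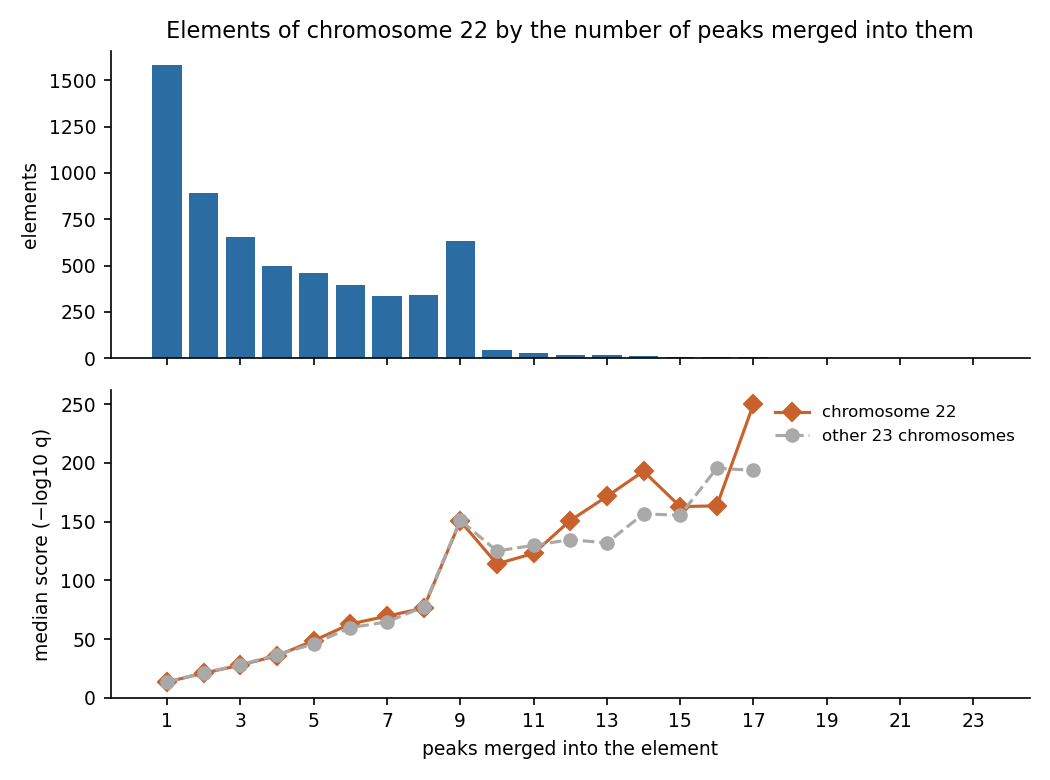
Number of chromosome 22 elements by the number of merged peaks (upper panel) and the median score for each peak number with at least 5 elements (lower panel), with the other 23 chromosomes as circles. A second maximum of 634 elements stands at 9 peaks, and the median score of chromosome 22 is 13.5 at 1 peak and 151 at 9 peaks, close to the other chromosomes.

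Score and place differed by peak number. The median score was 13.5 with 1 peak, 48.6 with 5, 76.4 with 8 and 151 with 9. On the other chromosomes the median scores at the same peak numbers were 13.7, 45.97, 77.5 and 151. Of the single-peak elements of chromosome 22, 15.6% lay at gene ends, of those with 8 peaks 34.3%, and of those with 9 peaks 63.9%. These gene-end shares were not computed for the other chromosomes. A peak number above 9 was found for 144 elements (2.43%, against 2.29% elsewhere), and these were wider, with a median of 576 bp at 10 peaks against 308 bp at 9.

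Scores of chromosome 22 ran from 7.10 to 825, and 350 elements (5.90%, against 5.82% elsewhere) were above 200. All of the 10 highest came from 9 peaks, and 9 of them lay at gene ends. The highest, at chr22:23571814-23572378, was 565 bp wide with a score of 825, 0.207 kb from LOC101173107. The next were 758 at LOC101174548 and 749 at LOC101165680. Among named genes arid4a, which encodes an ARID-domain chromatin protein, followed with 737 over its end. The element inside ppp2r5c, a gene for a regulatory subunit of protein phosphatase 2A, had 728 and was the only one of the 10 not at a gene end.

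The remaining 5 had scores of 683 at atg9a, an autophagy gene, 681 at LOC101164688, 677 at ywhaq, 673 at pnn, whose product pinin acts in splicing and cell adhesion, and 660 at eif2ak3. The last encodes the kinase PERK, which slows translation when unfolded proteins build up. Apart from arid4a none of these genes is in the table of TF genes.

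Elements merged from the most peaks were not the strongest. The element at LOC101156053 (chr22:24546494-24547534) had 23 peaks and a score of 268. At sos2, a Ras exchange factor gene, 22 peaks gave 115. With 21 peaks LOC101161353 had 235 and LOC105356987 had 165, and with 19 peaks nfkbia, an inhibitor of NF-κB, had 143. All 5 overlapped a gene end and were 878 to 1173 bp wide. The strongest single-peak element, chr22:17663414-17663610 inside LOC101164267, had a score of 211. The next had 97.7 in a distal place and 91.9 beside mir203, a microRNA of the skin in mammals.

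Most genes of the chromosome had an element. Of 881 protein-coding genes outside the intervals set aside, 812 (92.2%, interval 90.2 to 93.8) were the closest gene of at least 1 element, against 89.0% of 21167 elsewhere, and the median was 3 elements per gene in both. More than 10 elements fell to 150 genes (17.0%, against 15.0%). Of the 103 lncRNA genes in RefSeq, 67 (65.0%) had an element, against 60.3% elsewhere.

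A few genes held many elements, most of them long. The ARID-domain gene LOC101156929, of 218 kb, was assigned 90 elements, 75 of them inside it, with a median score of 24.3 and 30 from a single peak. LOC101166175 had 55 and LOC101158568 had 54. Others were dph6, an enzyme gene of diphthamide synthesis, with 50, ralgapa2 with 49, fgfr3 with 45, npas3 with 44, and zfp36l1 and kif26a, a kinesin-family gene, with 42 each.

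Long genes differed in how densely they were filled. The gene alk, at 650 kb, had 40 elements inside it, or 0.62 per 10 kb, and none of 9 or more peaks. In npas3, of 232 kb, 1.85 elements per 10 kb lay inside the gene, in LOC101156929 3.44 and in fgfr3 4.65.

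Distal elements were also counted by gene. The gene model LOC101162795, only 0.68 kb long, was assigned 36 distal elements, the most remote 118 kb away, and none of its 40 elements had 9 peaks. The gene zfp36l1, whose product binds AU-rich messenger RNAs and speeds their decay, had 31 distal elements among 42, up to 41.1 kb away. The lncRNA gene LOC110013912 had 29, the tRNA gene trnam-cau 25, prkd1, which encodes protein kinase D1, 23 and bmp4 also 23.

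The gene lists had few members on the chromosome. Of 51 signalling ligand genes in the genome 2 were here: bmp4, a growth factor gene of ventral and dorsal patterning, with 31 elements, and tgfb3, of the same superfamily, with 4. The median of the list elsewhere was 8. The elements of bmp4 had scores of 9.47 to 188 (median 36.2), and only 2 came from 9 or more peaks. Of 35 receptor genes 1 was here, the fibroblast growth factor receptor gene fgfr3 with 45 elements, against a median of 16.5. Its elements had a median score of 43.3 and a highest of 332. The collagen gene col12a1 had 23, against 14 elsewhere.

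Of genes of general cell functions, the ribosomal protein gene rpl13a had 5 elements, against a median of 2 for its list elsewhere. The proteasome gene psma3 had 2 and atp5s, of the ATP synthase, had 2, both as the median of their lists elsewhere. The symbol rule for ribosomal proteins also took in rps6kl1, which encodes a kinase-like protein and had 5 elements. Of 11 solute carrier genes the median was 4, as elsewhere, and slc25a21 (38), slc8a3 (15) and slc4a11 (13) led. Among the 11 the symbol rule also took in slc4a1ap, which encodes a protein that binds a carrier and is no carrier itself. All 5 channel and receptor genes of synapses and membranes, grin3b, gabrb1, kcnk5, gabrg1 and kcnk10, had elements, 17 in grin3b and 5 or 6 in the others. Of the 86 genes of this list elsewhere 98.8% had an element, and the median was 6 both here and elsewhere. Over all protein-coding genes of the chromosome the median was 3.

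Of the TF genes in the study's table, 56 had their transcription start site (TSS) on chromosome 22 outside the intervals set aside, or 2.01 per Mb, rank 9 of 24. An element overlapped the 1 kb on either side of the TSS in 52 of them (92.9%, interval 83.0 to 97.2), against 87.3% of 1472 elsewhere (85.5 to 88.9). By chromosome this share ranked only 8 of 24, and the median of the other chromosomes was 89.1%. Chromosome 2, with 112 TF genes and a share of 50.9%, lowers the pooled value. The strongest element at the TSS had a median score of 142 (quartiles 74.5 and 246), against 123 elsewhere. In 31 of the 52 genes (59.6%) it came from 9 or more peaks, against 56.7% elsewhere. At the other end of the gene 34 of the 56 (60.7%, interval 47.6 to 72.4) had an element, against 47.6%. Within 50 kb of the TSS lay 8 to 52 elements, with a median of 28, against 25 elsewhere. By chromosome that median also ranked 8 of 24, and chromosome 2 had the lowest, 6.

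**Figure D4:**
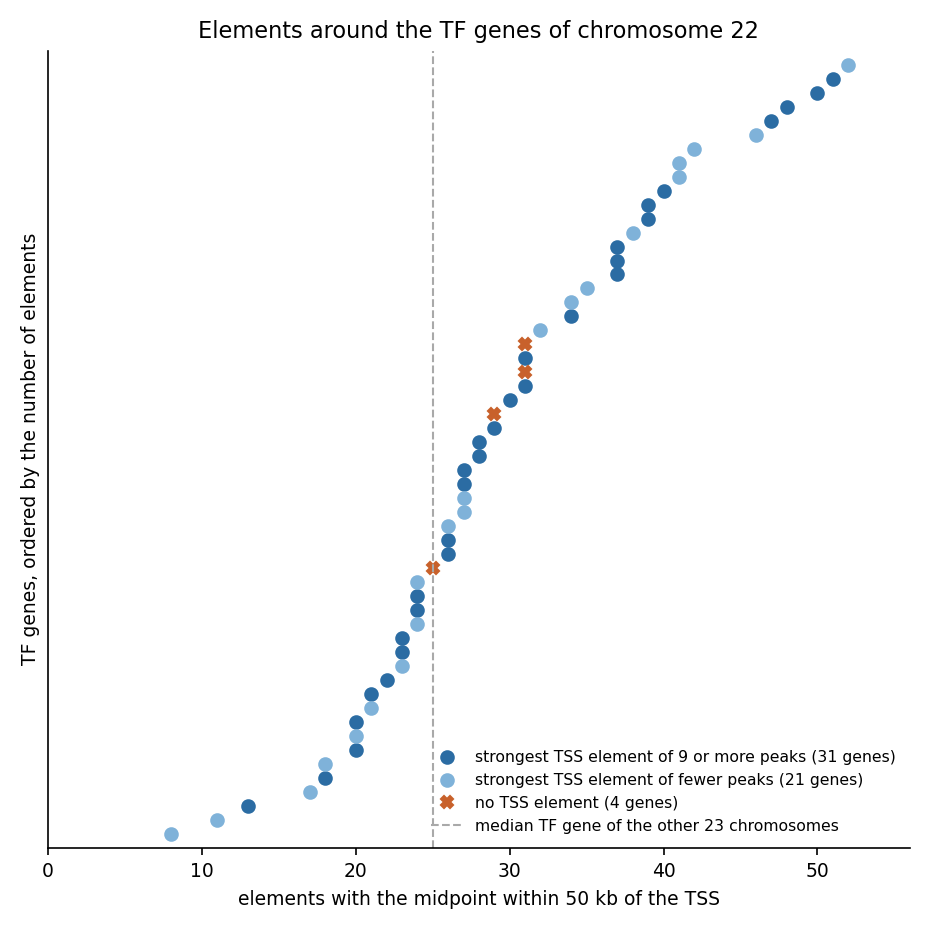
Number of elements with the midpoint within 50 kb of the TSS for the 56 TF genes of chromosome 22 (horizontal axis), ordered from bottom to top by that number, with colours for a strongest TSS element of 9 or more peaks (31 genes) or of fewer (21 genes). The genes run from esr2 with 8 to otx2 with 52, the dashed line marks 25, the median elsewhere, and the 4 genes without a TSS element (crosses) have 25 to 31.

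Homeobox genes, which pattern body axes and organs, were the second largest family with 11 genes. All 11 had a TSS element, against 93.9% of 214 such genes elsewhere. The median was 35 elements within 50 kb, against 29 elsewhere. The most lay around six4, a regulator of muscle and sense organ precursors, with 51, and six6, an eye regulator nearby, had 41. From six4 to six6 there were 18 elements in 30.3 kb, with scores from 8.52 to 291. The element over the TSS of six4 had 9 peaks and the highest of these scores, and the strongest at the TSS of six6 had 85.0 with 1 peak.

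The neighbours nkx2-8 and nkx2-1 had 39 and 35 elements within 50 kb, and they lay beside pax9. A single element of score 170 with 9 peaks lay within 1 kb of both the TSS of pax9, at position 838961, and that of nkx2-8, at position 840098. It covered the TSS of pax9 and ended at position 839111, so it reached only the edge of the 1 kb around the start of nkx2-8. That start came from the study's model, whereas RefSeq placed nkx2-8 at 855352-856639. Upstream of the TSS of nkx2-1, a regulator of thyroid and forebrain, lay an element of score 262 with 9 peaks. It lay at chr22:860573-860865, just outside the 1 kb around that TSS at position 862137. Within the 1 kb was only an element of 1 peak and score 8.12, the lowest at any TF start site of the chromosome. Also at the low end were nkx2.2a and nkx2.4a, regulators of the ventral brain, with 25.1 and 26.1 and 2 peaks each.

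The homeobox genes emx1, of the dorsal forebrain, and noto, of the notochord, had 24 elements each within 50 kb. Their models in the study overlap, at 25801834-25807187 and 25806357-25812957, and so do the 50 kb around their start sites. The 11.1 kb of both genes held 8 elements with scores of 35.9, 13.0, 22.9, 38.2, 86.3, 46.9, 35.8 and 94.2. At their start sites the strongest had 86.3 with 9 peaks for emx1 and 94.2 with 3 peaks for noto. The element counted for emx1, chr22:25807895-25808081, lies inside the noto model and outside that of emx1, so it cannot be told apart from one of noto. The organizer gene gsc had 37 elements within 50 kb, 19 of them distal, and 3 elements at its TSS, the strongest with 111 and 11 peaks.

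The Otx family gene otx2, a regulator of the forebrain and the eye, had the most elements of all TF genes of the chromosome, 52 within 50 kb, of which 22 were distal. Upstream of the TSS were 25, none of 9 or more peaks and 18 of them distal, and downstream 27, 3 of 9 or more peaks and 4 distal. Its TSS element had a score of 240 with 8 peaks. The oestrogen receptor gene esr2 had the fewest, 8, while esrrb, the other gene of the ESR-like nuclear receptor family, had 41. The THAP gene LOC101159629 had 13. The TSS element of esr2 was weak, with 15.5 and 3 peaks, and that of esrrb had 81.9 and 8 peaks.

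The PAX genes pax9 and pax1, both of the pharynx and the vertebral column, had 39 and 29 elements. Their TSS elements both had 9 peaks, with scores of 170 and 64.6. The stretch from pax1 to nkx2.4a, with nkx2.2a between them, held 20 elements in 72.4 kb, 7 of them from a single peak.

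All 5 forkhead genes had a TSS element, against 91.2% of 57 such genes elsewhere. They had 20 to 42 elements within 50 kb, with a median of 26, against 29 elsewhere. The endodermal regulators foxa2 and foxa1 had 42 and 34, Foxo3 had 23 and foxi3, of the placodes, had 20. Their TSS scores were 73.7 for foxa2, 74.6 for foxa1, 83.7 for foxi3 and 107 for Foxo3. The elements of foxa2 and foxa1 had 6 peaks each, and those of foxi3 and Foxo3 had 9.

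The C2H2 zinc finger family was the largest with 12 genes, 10 of them with a TSS element, against 81.3% of 466 genes elsewhere. The median was 28 elements within 50 kb, against 22 elsewhere. TSS scores of this family elsewhere were not computed. On chromosome 22 its TSS elements had a median score of 386, against 142 over all TF genes of the chromosome. The highest were 596 at klf11, 467 at znf292, 461 at IGDB19522, 415 at sp3b and 412 at yy1a. The model IGDB19522 overlies ddo, the gene for D-aspartate oxidase, so its element cannot be told apart from one of ddo. LOC101173990 had 47 elements within 50 kb and LOC101161355 had 46. The low end was insm2, of neuroendocrine cells, with 11 elements and a TSS score of 15.2, while osr1, a regulator of kidney precursors, had 66.4 and rlf 157.

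The 5 bHLH genes all had a TSS element, against 93.3% of 120 such genes elsewhere. The strongest were at id2, an inhibitor of other bHLH factors, with 531, and at MAX, the partner of Myc, with 506, both of 9 peaks. LOC101155312 had 264 and LOC101163780 had 59.7, while npas3, a neural gene, had 20.8 with 7 peaks. Within 50 kb there were 40 elements for id2 and 21 to 30 for the others, with a family median of 27, against 28 elsewhere. The bZIP genes had fewer, 18 to 26, with a median of 20.5, against 28 elsewhere: bach2a had 26, jdp2 21, fosaa 20 and fosl2 18. The TSS scores were 198, 138, 16.2 and 146, and fosaa, an immediate early gene, had the only single-peak element among them.

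Smaller families showed both patterns. The ARID genes were arid4a, with 37 elements and the TSS score of 737, and LOC101156929, with 38 and 198. The CP2 genes were grhl1, a regulator of epidermis, with 37 elements, 10 of them of 9 or more peaks, and LOC101170136 with 24. The count of LOC101170136 leaves out elements of an interval set aside, because its 50 kb reach into it. The CCCH gene zfp36l1 had 50 elements, 39 of them distal, and a TSS score of 196, and mta1, of the NuRD chromatin complex, had 34 and 269. The Runt gene runx3 had 31 elements with 170 at the TSS, prox2 had 32 with 127, the neuronal gene MYT1L had 18 with 222 and the Tub family gene LOC101159636 had 22 with 167. The MYB-family gene rcor1, of the CoREST repressor complex, had 27 with 89.9.

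The 4 TF genes with no element within 1 kb of the TSS included Mga, a T-box gene whose product pairs with MAX, and the C2H2 models IGDB06151 and IGDB06152. Both C2H2 models were matched to a single RefSeq gene, LOC101167085, and had 31 and 29 elements within 50 kb. All 4 had an element within 2 kb of the TSS. The models of Mga and of the C2H2 genes start inside longer RefSeq genes. The lower ends of those RefSeq genes had elements of score 215 with 14 peaks and 138 with 9 peaks.

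The lncRNA genes of the study's table gave a different picture. Of 32 on the chromosome, 13 had an element within 1 kb of the TSS (40.6%, interval 25.5 to 57.7), against 45.1% of 1020 elsewhere, and 17 had one at the other end (53.1%, against 50.3%). Their strongest TSS elements had a median score of 98.6, against 53.9. Of the 13, 3 (23.1%) came from 9 or more peaks, against 26.7% elsewhere. The strongest were 498 at IGDB19602, which overlaps g2e3, and 489 at IGDB19563, which overlaps no RefSeq gene. Both elements also lay at protein-coding genes. The first was assigned to the neighbouring gene scfd1, and the second lay 225 bp from the end of chp1. Within 50 kb there were 5 to 43 elements with a median of 24, against 23 elsewhere. The most lay around IGDB19733 with 43, and IGDB19908 and IGDB19940 with 42 each, of which only IGDB19940 had a TSS element. Of the 32 models, 30 overlapped a RefSeq gene, so an element at such a start site could not be told apart from one of the overlapping gene.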

How the data were processed

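ATAC-seq libraries were made by the Omni-ATAC protocol. According to the labels and the study's methods, the authors used Trimmomatic 0.36 for trimming and Bowtie2 2.3.4.1 for alignment against Hd-rR, joined the replicates of each stage, detected peaks with MACS2 2.1.2, and united those whose −log q exceeded 7 across stages. The deposited list holds a score, read as −log10 of q, and a whole number, read as merged peaks. How the score of a merged element was made is not given in the sources used here.

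Elements were placed by midpoint against 26832 RefSeq genes of ASM223467v1, whose table gives no strand. The last element or gene was taken as the end of a chromosome. TF and lncRNA start sites came from the study's tables, and all 56 TF genes matched a RefSeq gene. Named were the extreme windows, runs, gaps, elements and genes, every TF gene with a symbol, and list members. Members and lists were chosen with earlier results of these data known. Chromosomes were compared by rank, without tests. The steps were tested on simulated data. Python 3.11.15, NumPy 2.4.6, SciPy 1.17.1, pandas 2.3.3 and Matplotlib 3.10.9 were used. No promoter sequence was printed, and a few genes that the naming rule takes in are not reported here.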

Additional observations from a re-analysis of the deposited data

How the results depend on the processing

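Of 46 alternatives, 27 gave a value within the interval of a share or within 1.5 times another value. Some of the 27 could not have moved, so this count does not measure stability. The distal share does not depend on the gene-end limit, whether 500 bp or 2 kb. Setting elements aside by midpoint kept the same elements, because no element crossed a border. With the intervals put back the density was 219 elements per Mb and the distal share 22.6%. With a proximal limit of 3 kb the distal share was 23.7%, with 10 kb 14.9%, and with protein-coding genes alone 22.97%, and its rank stayed at 5 of 24 in these 3. Above a score of 20 the elements of 9 or more peaks made up 19.4% and single-peak elements 8.10%, and above 10 single-peak elements made up 22.4%. Dense runs numbered 6 with 500 bp between neighbours, 161 with 2 kb, 0 with at least 8 elements and 14 above a score of 20, where their number ranked 6 of 24 against 16 for the main count and the density ranked 8. Gaps numbered 113 over 25 kb, 4 over 100 kb and 51 over 50 kb above a score of 20. An element lay within 2 kb of the TSS of 100% of the TF genes, and within 500 bp and 2 kb of 18.8% and 59.4% of lncRNA genes. The median TF gene had 16 elements within 25 kb and 59 within 100 kb, the latter ahead of all other chromosomes. A wider or narrower limit changes such counts in itself. The reasons for changes of rank, such as from 8 to 1 of 24 for the TF median within 100 kb, were not tested.

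The rank of the density ran from 1 to 8 of 24 over the alternatives. The list pools all libraries, so no error between replicates could be given, and score, width and peak number all depend on a read depth that is unknown. No paired analysis was possible because the list holds no column per library. Leaving out a replicate was not possible for the same reason.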

Other observations

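Close to the detection limit of 7, chromosome 22 held 27 elements with a score up to 7.5, 67 up to 8 and a further 288 from 8 to 10. The lowest scores, 7.10, 7.11 and 7.15, belonged to single-peak elements inside LOC101160122, 6.25 kb from mbip and inside vrk1. The weakest element of 9 or more peaks had a score of 23.8 and lay at the end of pqlc3. The widest element, 3022 bp inside LOC105353719 at chr22:17941345-17944366, had a score of only 62.6 with 9 peaks, and the next widest, 1440 and 1434 bp, had 225 and 126.

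Among genes that are neither long nor in a list, the tRNA gene trnam-cau, 0.07 kb long, was the closest gene of 26 elements, 25 of them distal. All 3 tRNA genes of the chromosome outside the intervals set aside were the closest gene of at least 1 element (interval 43.9 to 100). On the other chromosomes 17.5% of 760 tRNA genes were (15.0 to 20.4). With only 3 genes, and with each element assigned to its closest gene alone, this contrast is a description only.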
